A study of Mus musculus with 4 samples.

Results

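The Hox, Pax, Wnt, Fox and Tbx genes were examined for REST-bound regions in mouse embryonic stem cells (ESCs). Members were taken by gene symbol from the GENCODE M1 annotation of the mm9 assembly, as the protein-coding genes named Hoxa to Hoxd, Pax, Wnt or Tbx plus a number, or Fox plus a letter and a number. The rule found 123 of 22219 protein-coding genes, of which 39 were Hox, 9 Pax, 19 Wnt, 43 Fox and 13 Tbx genes. The series asked how REST occupancy relates to the Polycomb mark H3K27me3 in ESCs, and held 4 samples. The sample analysed was a REST chromatin immunoprecipitation from wild type N6 ESCs of the C57BL/6 strain, grown in LIF and serum on irradiated feeder fibroblasts and then passaged on gelatin to remove the feeders. The antibody was a rabbit polyclonal raised against a C-terminal REST peptide. DNA from 2 biological replicates, each with 3 technical replicates, had been pooled into 1 library before sequencing, so no spread between replicates could be measured. H3K27me3 in wild type ESCs, H3K27me3 in REST-/- (N8) ESCs and the input DNA were not analysed here. A list of regions holds no expression markers, so the identity of the cells and the carry-over of feeders could not be checked from it.

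The list held 2504 regions, each with its position and its rank by enrichment, rank 1 being the most enriched. It gave no read counts, so how many reads lay behind each region is unknown. A gene was said to have a region where any transcription start site (TSS) of its protein-coding transcripts was at most 20 kb from the midpoint of one. Distances below are from TSS to midpoint, negative upstream of the gene and positive downstream. Intervals in brackets are exact Clopper-Pearson 95% intervals. They cover counting error over genes or regions only, and neighbouring genes that share a region are not independent.

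REST is a zinc finger repressor that keeps neuronal genes silent outside the nervous system. It binds the repressor element 1 (RE1), which is made of a left and a right part, and recruits histone deacetylases and demethylases through CoREST and Sin3. Hox genes encode homeodomain factors that set position along the body axis and are arranged in clusters. Pax factors, with a paired domain, and Fox factors, with a forkhead domain, specify organs and cell lineages. Tbx genes encode T-box factors of mesoderm, heart and limb, and Wnt genes encode secreted ligands that act through Frizzled receptors. Many genes of these families are known Polycomb targets in ESCs, where they are silent and poised.

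To show what REST could recognise at these genes, the best RE1 match of the 7 regions found near members was read from the genome. The model was TTCAGCACCNNGGACAGCGCC, on either strand, where N is a free base. It took the most frequent base at each defined position over 498 close matches in the listed regions themselves. These matches were picked with at most 1 mismatch to a preset left seed and to a preset right seed. The seeds covered all defined bases except those at positions 20 and 21, so the model largely follows the seeds. A full RE1 was taken as at most 5 mismatches over the 19 defined bases. In each line capitals mark bases that equal the model and lower case marks mismatches and free bases. Sequences run 5′ to 3′ along the strand of the match. The first line, from the region at Lhx3, is a match without mismatch and is given for comparison.
Lhx3: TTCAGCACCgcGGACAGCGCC
Pax8: caCAGtACCttGGACAGCaCC
Pax4: TTCAGCACCatGGgCAGgaCa
Wnt3a: gcCAGgACCttGGACAGtGat
Pax7: cTCAGgACCctGGttAGttCC
Foxn4: gTCtGCAatttGGcCAcCGtC
Pax5: aTCAGaACaggGGcatcCGgC
Wnt1: cgCcaaAgttcGaACAGCGCC

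Pax4 and Pax8 each matched with 4 mismatches, and these were the only full RE1s among the 7 regions. At Pax4 the left part was intact and all 4 mismatches fell in the right part. At Pax8 the left part held 3 mismatches and the right part 1. Wnt3a and Pax7 had 6 mismatches, Foxn4 had 7, and Pax5 and Wnt1 had 8. All of these lie above the limit of 5.

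REST also binds left and right parts that lie further apart than in the canonical RE1, and both parts were therefore searched on 1 strand with 3 to 20 bases between them. This search was added after the regions had been seen. The regions with at most 3 mismatches in both parts together are shown with the same use of capitals.
Pax5: TTCAGgACCcgctgcgtgtGGACAGCGCC
Pax4: TTCAGCACCatgggcaGGACAGCaCg
Wnt1: cTCAGCgCCaaagttcGaACAGCGCC

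In the Pax5 region, at chr4:44717340-44717368, an intact right part lay 10 bases behind a left part with 1 mismatch. This is the closest match to REST recognition sequence in any of the 7 regions. In the Pax4 region the same intact left part as above was followed after 7 bases by a right part with 2 mismatches, which is fewer than in its canonical match. The Wnt1 region held both parts 7 bases apart, with 2 mismatches in the left and 1 in the right. The other 4 regions had 5 or 6 mismatches in this search. With either form allowed, 4 of the 7 regions (57.1%, 18.4 to 90.1%) held an RE1, beside 1685 of all 2504 regions (67.3%).

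Among the 123 genes, 7 had a REST region within 20 kb (5.69%, 2.32 to 11.4%). These were Pax4, Pax5, Pax7, Pax8, Wnt1, Wnt3a and Foxn4. Over all protein-coding genes the share was 8.20% (1822 genes), which lies inside the interval for the members. The density of regions was close to that around other genes. The windows of 20 kb around their TSSs covered 4.21 Mb and held 7 regions, or 1.66 per Mb, whereas those of all genes covered 746 Mb and held 1331 regions, or 1.78 per Mb.

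The families had different counts. Pax genes had a region in 4 of 9 cases (44.4%, 13.7 to 78.8%), Wnt genes in 2 of 19 (10.5%, 1.30 to 33.1%) and Fox genes in 1 of 43 (2.33%, 0.0589 to 12.3%). No Hox gene of 39 and no Tbx gene of 13 had one, which allows shares of up to 9.03% and 24.7%. The 39 Hox genes lie in 4 clusters and are not independent, so the limit of 9.03% is too tight. At 20 kb the interval of the Pax genes lay above the share over all genes and that of the other families did not. At other distances the Pax interval included that share. It was 0.281 to 48.2% at 5 kb (3.57% of all genes) and 13.7 to 78.8% at 50 kb (15.8%). At 100 kb it was 21.2 to 86.3% (26.5%). Families of 9 to 43 genes give wide intervals, and the differences between families were not tested.

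The shares at other distances lay on both sides of the background. A region lay within 1 kb of 1 member (0.813%, against 1.67% of all genes), within 5 kb of 2 (1.63%, against 3.57%), within 50 kb of 18 (14.6%, against 15.8%) and within 100 kb of 30 (24.4%, against 26.5%). The gap was widest at 200 kb, with 40 members (32.5%, against 41.6% of all genes). Farther out it closed and then turned, with 79 members (64.2%, against 63.8%) at 500 kb, 105 (85.4%, against 78.1%) at 1000 kb and 118 (95.9%, against 89.3%) at 2000 kb. All 39 Hox genes lay farther than 200 kb from a region, so they weigh on the shares up to there. The 40 members within 200 kb were thus all among the 84 others, and 40 of 84 is above the 41.6% of all genes. The gap at 200 kb therefore rests on the Hox genes. Without the Hox genes the shares were 1.19% at 1 kb, 2.38% at 5 kb and 8.33% at 20 kb. At 50 kb they were 21.4% (13.2 to 31.7%) and at 100 kb 35.7% (25.6 to 46.9%). The last 2 shares were above those of all genes, which lay inside both intervals. The median distance to the nearest region was 331.2 kb for the members (254 to 390 kb, from order statistics) and 283.9 kb for all genes. That interval treats genes as independent, which genes of 1 Hox cluster are not. With members under 100 kb apart merged into 80 loci the median was 228 kb, below that of all genes taken singly. By family it was 63.5 kb for Pax, 117.4 kb for Wnt, 178 kb for Tbx, 352 kb for Fox and 698.6 kb for Hox genes. The 123 members shared 77 nearest regions, and the 39 Hox genes shared 5.

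**Figure D1:**
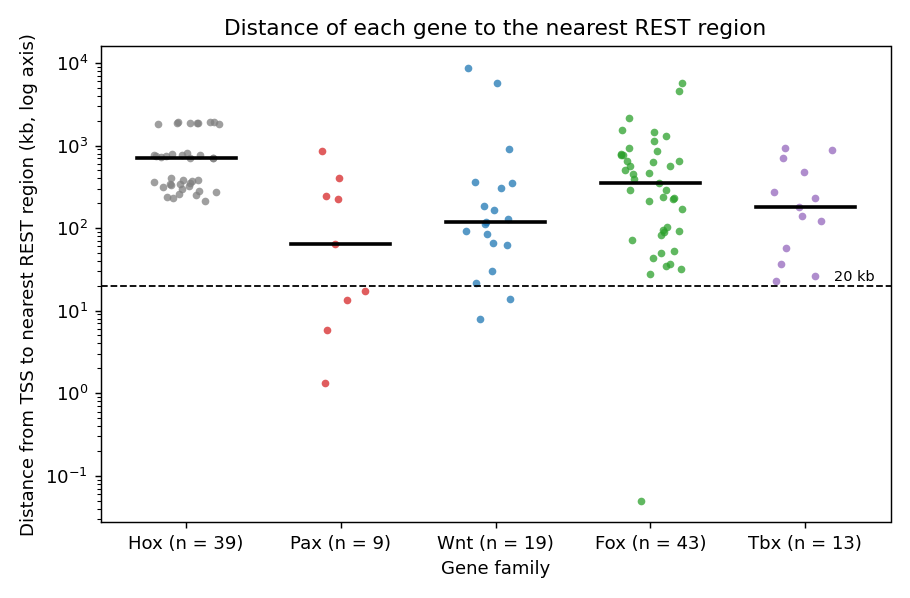
Distance from the TSS of each of the 123 genes to the midpoint of its nearest REST region, in kb on a log axis, by family. Each point is a gene, the thick line is the family median (698.6 kb for Hox, 63.5 kb for Pax) and the dashed line marks 20 kb, below which lie 4 Pax, 2 Wnt and 1 Fox genes.

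**Figure D2:**
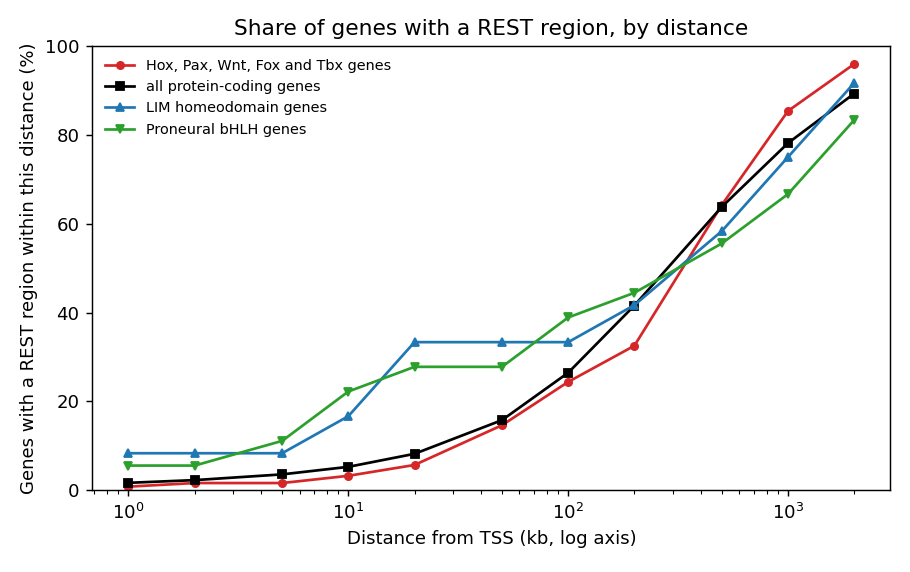
Percent of genes with a REST region within a given distance of a TSS (kb, log axis) for the 123 Hox, Pax, Wnt, Fox and Tbx genes, all protein-coding genes, 12 LIM homeodomain genes and 18 proneural bHLH genes. At 20 kb the 123 genes are at 5.69% and all genes at 8.20%, and the LIM homeodomain and proneural genes are at 33.3% and 27.8%.

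Of the Pax genes, Pax5, the factor that commits lymphoid progenitors to the B cell lineage, had the most enriched region, with rank 696. It lay in intron 1 of Pax5 at chr4:44717266-44717542, 5.88 kb downstream of a TSS. With 69.9% G and C and 29 CpGs in 276 bp it was the richest in both among the 7 regions. The next nearest gene was Zcchc7, with the region at -51.3 kb from its TSS.

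Pax4, required for insulin-producing β cells and somatostatin-producing δ cells of the pancreas, had its region (rank 1093) at chr6:28400561-28400809, 1.33 kb upstream of the gene. It was the closest of the Pax regions to a TSS, and the RE1 with an intact left part lay 24.5 bp from its midpoint. Pax8, which controls thyroid and kidney development, had its region (rank 1142) at chr2:24344253-24344549, 13.3 kb upstream in intergenic sequence. Pax7, a factor of neural crest and of the satellite cells of muscle, had its region (rank 1355) at chr4:139406809-139407023, 17.5 kb upstream, also intergenic. Pax7 was therefore the member nearest to the limit of 20 kb from inside.

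The remaining Pax genes were Pax1, Pax2, Pax3, Pax6 and Pax9. Pax2, a regulator of kidney and of the midbrain-hindbrain boundary, was the closest of them to a region, at 63.5 kb. Pax6, the eye and forebrain regulator, was 224.6 kb from a region, and Pax1, a factor of the sclerotome, was the farthest at 852.4 kb.

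Both Wnt genes with a region lie beside another Wnt gene. Wnt1, the midbrain organiser ligand, had a region of rank 1263 at chr15:98629969-98630207, 7.97 kb downstream of its TSS and intergenic. The TSS of Ddn, the gene for the postsynaptic protein dendrin, lay 8.27 kb from the same midpoint, so the region cannot be assigned to either gene by distance. Ddn was the only other protein-coding gene within 20 kb of any of the 7 regions. Wnt10b, a ligand of bone and fat lineages and the neighbour of Wnt1, was the first member outside the limit, 21.5 kb from this region.

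Wnt3a, the ligand that maintains presomitic mesoderm and the hippocampal primordium, had a region of rank 1106 in its intron 1, at chr11:59090461-59090732, 13.7 kb downstream of the TSS. Its neighbour Wnt9a, a ligand of joint formation, was 29.8 kb from the same region. Among the other Wnt genes, Wnt2, a ligand of lung development, was the farthest of all 123 members from any region, at 8796 kb.

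Foxn4, a forkhead factor of retinal progenitors and of spinal V2 interneurons, was the only Fox gene with a region within 20 kb, and the only member with one within 1 kb. The region (rank 1350, chr5:114723746-114723986, 240 bp) had its midpoint 0.05 kb upstream of a TSS. It ran from 170 bases before the most upstream TSS to 70 bases after it. Those 170 upstream bases, at chr5:114723817-114723986 on the minus strand, are shown because they place the right part of an RE1 in the promoter. Capitals mark this 10-base right part, 1 mismatch included.
Foxn4 promoter: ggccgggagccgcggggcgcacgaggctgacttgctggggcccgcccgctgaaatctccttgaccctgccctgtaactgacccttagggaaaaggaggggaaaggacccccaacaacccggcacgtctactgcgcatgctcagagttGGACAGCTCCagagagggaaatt

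The right part ended 14 bases before the TSS, and no left part with fewer than 3 mismatches was found in the region. The right part, GGACAGCGCC with at most 1 mismatch on either strand, was in 2.26% of windows of the same length upstream of all protein-coding genes (502 of 22216). It was in 4 of the 7 regions near members (Pax5, Pax8, Wnt1 and Foxn4), in 39.0% of all regions and in 1.02% of 4983 windows of the same widths lying 2 kb beside the regions. A match is a description of letters and not a site of binding.

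Within 50 kb 16.3% of the Fox genes had a region (15.8% of all genes), and within 100 kb 30.2% (26.5% of all genes). Foxr1 was the closest of those outside the limit, at 27.7 kb, with the region in a coding exon of Ccdc84. Foxp2, a forkhead factor of Purkinje cells and striatum, was the farthest, at 5666 kb. No Fox gene had a region midpoint in its body (0 of 43, which allows up to 8.22%, against 4.91% of all genes). Fox genes were short, with a median length of 5.49 kb against 15.5 kb for all genes.

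None of the 4 Hox clusters held a REST region. The windows of 20 kb around Hox TSSs covered only 0.605 Mb, while windows of all genes held 1.78 regions per Mb. A count of 0 in so short a stretch is close to that density and does not set the clusters apart. The Hoxb cluster, 173.9 kb on chromosome 11, had regions 254.0 kb beyond Hoxb13 (rank 1796, near B4galnt2) and 382.6 kb beyond Hoxb1 (rank 2148, near Snx11). The Hoxb cluster therefore sat in an interval without a region that extended past both ends. For comparison, the median distance from a TSS to a region was 283.9 kb over all genes.

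The Hoxc cluster, 115.7 kb on chromosome 15, had the closest region of any cluster, 211.0 kb beyond Hoxc4 (rank 1063, near Nfe2). On the Hoxc13 side the gap was 585.5 kb (rank 388, near Myg1). The Hoxd cluster, 96.8 kb on chromosome 2, had the widest interval, with 3318 kb beyond Hoxd13 (rank 1595, near Slc25a12) and 1821 kb beyond Hoxd1 (rank 2299, near Prkra). Hoxc4 was thus the closest Hox gene to a region at 213.7 kb, and Hoxd13, a regulator of digit formation, the farthest at 1918 kb.

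**Figure D3:**
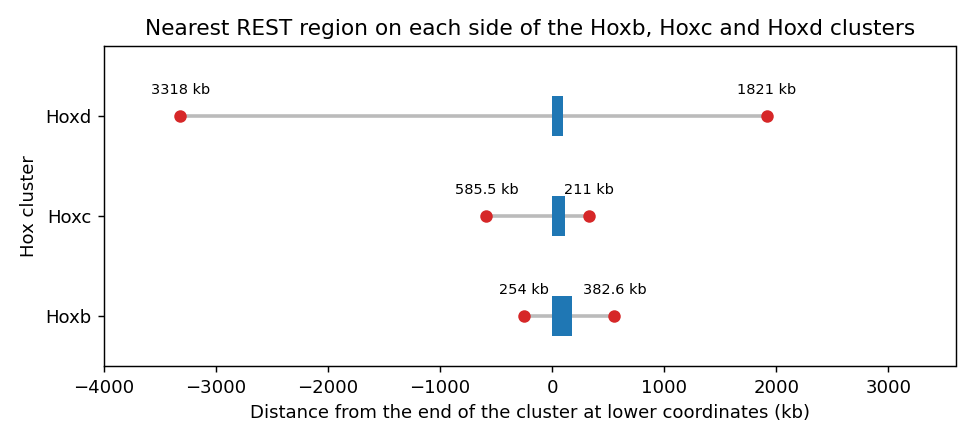
Nearest REST region (red points) on each side of the Hoxb, Hoxc and Hoxd clusters (blue bars, drawn to scale), in kb from the cluster end at lower coordinates. The labels give the gap from each cluster end to the region, from 211 kb at Hoxc to 3318 kb at Hoxd, and no region lies inside any of the 3 clusters drawn.

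The Tbx genes had no region within 20 kb, and 3 of 13 had one within 50 kb. Tbx19, the T-box factor of pituitary corticotrophs, was closest, with a region of rank 1210 lying 23.1 kb downstream. Tbx6, a factor of paraxial mesoderm, was 26.1 kb from a region in an intron of Gm15676 (rank 2180) whose nearest gene was Aldoa. Tbx4, the hindlimb factor, was the farthest at 942.3 kb.

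The limit of 20 kb fell among closely spaced values. Pax7 (17.5 kb), Wnt3a (13.7 kb) and Pax8 (13.3 kb) lay just inside, and Wnt10b (21.5 kb), Tbx19 (23.1 kb) and Tbx6 (26.1 kb) just outside. Between 20 and 50 kb there were 11 members, and in only 3 of them (Tbx19, Foxo6 and Foxi2) was the member the gene nearest to that region. The member was the nearest gene for all 7 regions within 20 kb. Counting a region only for its nearest gene therefore left the share of members at 5.69%, while that of all genes went from 8.20% to 5.41%, which is below the members' value and inside their interval. This order rests on the region counted for Wnt1 (7.97 kb) and not Ddn (8.27 kb). Counted for Ddn, it would put the members below all genes.

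The 7 regions had ranks from 696 to 1355, with a median of 1142 of 2504. In successive blocks of 626 ranks there were 0, 4, 3 and 0 of them. Their widths, 214 to 296 bp, lay close to the median of 264 bp of all regions. The regions near these regulators were thus neither among the most enriched nor among the least enriched.

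The share of regions with a full RE1 was lower near the members than in the list as a whole, but 7 regions are too few to show a difference. It was 2 of 7 (28.6%, 3.67 to 71.0%), compared with 1454 of 2504 regions (58.1%, 56.1 to 60.0%) and 64.5% of the 660 regions in the same span of ranks. In the flanking windows it was 0.843%. Parts at a wider gap with at most 3 mismatches were found in 362 of all regions (14.5%) and in 6 flanking windows (0.120%). Of those 362 regions, 286 had a gap of 7 to 11 bases, the range in which the Pax5, Pax4 and Wnt1 gaps lay.

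**Figure D4:**
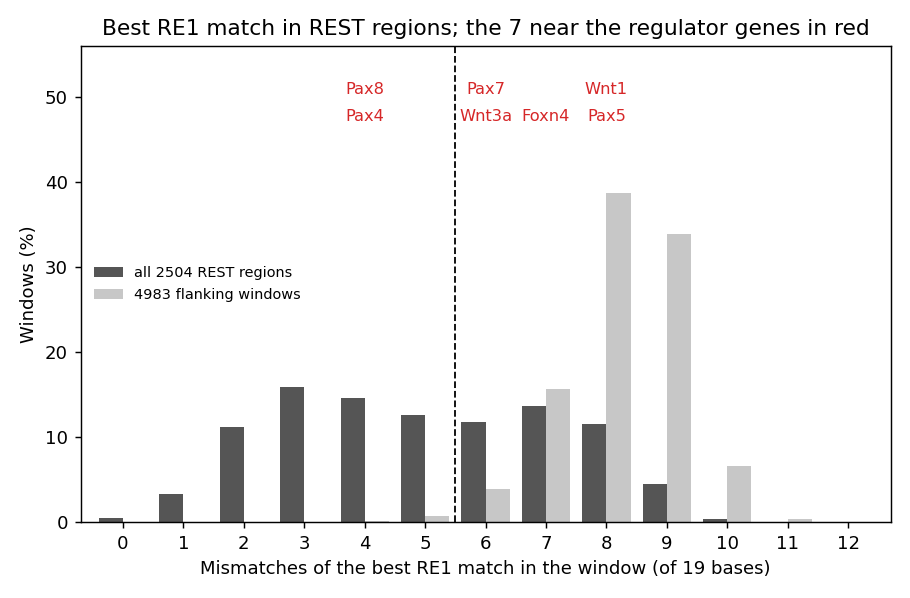
Mismatches of the best canonical RE1 match (of 19 bases) in all 2504 REST regions (dark bars) and in 4983 windows of the same widths 2 kb to each side (light bars), as percent of windows. Gene names in red stand above the value of their region, with Pax4 and Pax8 at 4 and the other 5 at 6 to 8, right of the dashed line that bounds a full RE1.

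Counted by gene, 2 members (1.63%, 0.198 to 5.75%) had a full RE1 in at least 1 region closer than 20 kb, against 4.49% of all genes. A region midpoint lay in the body of 3 members (2.44%, 0.506 to 6.96%), against 4.91% of all genes. These were Pax5 with 2 regions, and Wnt3a and Tbx15, a T-box factor of skeleton and skin, with 1 each. The share was not adjusted for gene length, whose median was 7.99 kb for members and 15.5 kb for all genes.

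Conversely, RE1 matches near the members were examined for whether they lay in a listed region. A match with at most 3 mismatches lay within 20 kb of 5 members (4.07%, 1.33 to 9.23%), against 3.60% of all genes. There were 2 such matches, and they are printed because neither was in a REST region.
Foxk1: gcCAGCtCCcaGGACAGCGCC
Hoxc11: TTCAGCAtCcgGGACAGCtgC

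The first lay in an intron of Foxk1, a forkhead factor of muscle progenitors, at chr5:142879471-142879491, 2.01 kb downstream of a TSS. It had an intact right part and 3 mismatches in the left, and the nearest region was 291.3 kb away. The second lay in a coding exon of Hoxc11 at chr15:102787006-102787026, and within 20 kb of Hoxc9, Hoxc10 and Hoxc12 as well. It was the only match of this quality in or within 20 kb of a Hox cluster, with 1 mismatch in the left part and 2 in the right, and the nearest region was 291.6 kb away. Over all genes 66.6% of matches of this quality (410 of 616) lay in a region, but 0 of 2 is compatible with any share up to 84.2%.

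With up to 4 mismatches 18 matches lay near members, and 2 of them, at Pax4 and Pax8, were in a region (11.1%, 1.38 to 34.7%). Near all genes it was 619 of 2625 (23.6%). The matches outside the listed regions included one 2.17 kb downstream of a Pax7 TSS and one with an intact right part 1.05 kb upstream of Wnt7b, a ligand of lung and nervous system. In the Hoxd cluster 1 match with an intact left part lay in the 5′ UTR of Hoxd12, 1911 kb from the nearest region.

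Beyond 20 kb, several members were still the protein-coding gene nearest to a region. In all, 15 members (12.2%, 6.99 to 19.3%) were the nearest gene of 19 regions, while 8.98% of all genes were nearest to at least 1. Of these 19 regions 7 lay within 20 kb and 12 beyond, the latter at 10 genes. A full RE1 was held by 8 of the 12, beside 58.1% of all 2504 regions. The 5 of the 12 that ranked best, with ranks from 94 to 897, all held one. Their share was not compared with other regions of such ranks. The 5 are printed with the canonical spacing and with the distance to the gene given after them.
Pax2 (rank 94): TTCAGaACCatGGACAGaGgC
Pax5 (rank 327): TTCAGCACCacGGACAGCGgC
Pax5 (rank 460): gTCAGgACCaaGGACAGCagC
Pax7 (rank 834): TTtAGtACCatGGAgAGaGCC
Foxb1 (rank 897): aTCAGgACCatGGACAGtaCC

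The best ranked region with any member as its nearest gene was that of Pax2 (rank 94, chr19:44766908-44767249), 63.5 kb upstream, in an exon of Gm17704 and with an RE1 of 3 mismatches. A weaker region without a full RE1 (rank 1460) lay at -76.3 kb from Pax2. Pax5 was nearest to 3 regions, the most of any member. Besides that in intron 1, they were a region of rank 460 in another intron, 131.6 kb downstream of the TSS, and one of rank 327 beyond the gene, at 198.5 kb. The latter held the RE1 with the fewest mismatches among the 19 regions, 1. Both were more enriched than the region close to the TSS.

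Pax7 had a region of rank 834 at -51.9 kb, again more enriched and with a better RE1 than the one within 20 kb. Foxb1, a forkhead factor of hypothalamus and spinal cord, had a region of rank 897 lying 95.9 kb upstream. The remaining distal regions had lower enrichment. They lay near Foxi2 (rank 1107), Tbx19 (1210), Tbx5, the heart and forelimb factor (2094), Foxa2, the factor of node, floor plate and endoderm (2247), Foxo6 (2260) and Tbx15 (2303). Those of Tbx5, Foxa2 and Tbx15 held a full RE1, and that of Foxi2 held both parts 10 bases apart with 3 mismatches. No Hox and no further Wnt gene was the nearest gene of a region. Nearness does not show which gene a distal region acts on.

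**Figure D5:**
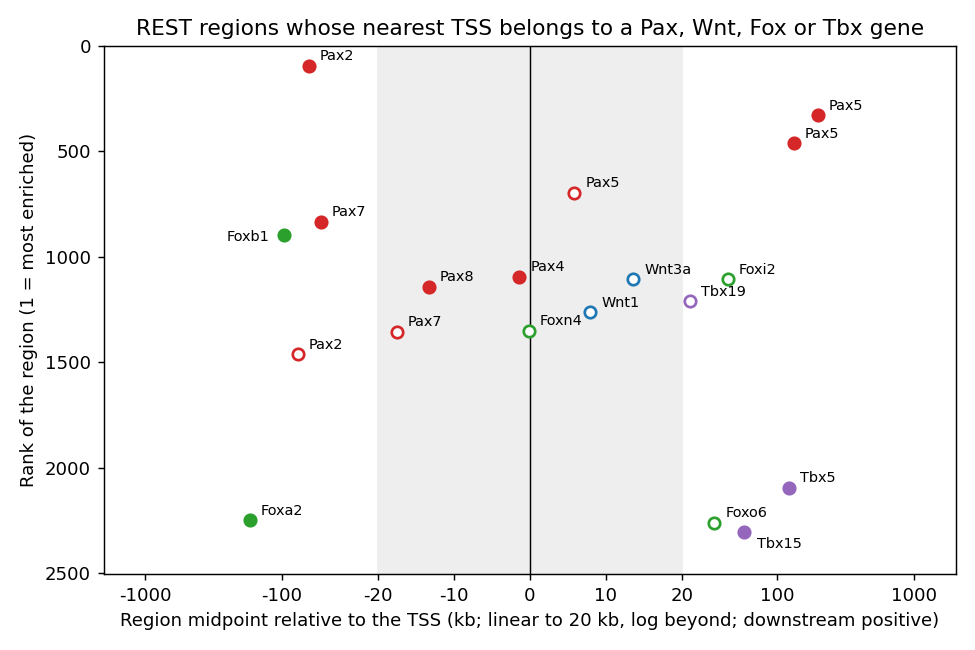
The 19 REST regions whose nearest protein-coding TSS belongs to a Pax (red), Wnt (blue), Fox (green) or Tbx (purple) gene, by position relative to the TSS (kb, linear within 20 kb and log beyond) and rank (1 at the top). Filled points hold a full RE1 and open points do not, and the shaded band spans 20 kb to each side, where 2 of 7 are filled, with 8 of 12 outside and 58.1% of all 2504 regions.

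Start sites of the members were often rich in CpG. A CpG-rich start, taken as at least 50% G and C and an observed to expected CpG ratio of at least 0.6 in 1000 bp, was found in 86 of the 123 members (69.9%, 61.0 to 77.9%) and in 48.2% of all genes. Among all genes, those with a CpG-rich start had a region more often (10.5%, 9.90 to 11.1%) than the others (6.09%, 5.66 to 6.54%). Among the members it was 4 of 86 with a CpG-rich start (4.65%, 1.28 to 11.5%) and 3 of 37 without (8.11%, 1.70 to 21.9%), which cannot be told apart at these numbers.

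Other developmental regulators gave different counts. LIM homeodomain genes, which specify motor neurons and pituitary cells among others, had a region in 4 of 12 cases (33.3%, 9.92 to 65.1%), namely Lhx3 (rank 257), Lhx5 (536), Lhx4 (944) and Lhx2 (1498). Proneural bHLH genes had one in 5 of 18 (27.8%, 9.69 to 53.5%), of which Neurod4 (318), Neurod1 (405) and Neurod2 (943) ranked best. These intervals lay above the share of 8.20% over all genes and overlapped that of the 123 members. Other homeobox genes had a region in 1 of 50 cases (Six6, an eye and pituitary factor, rank 914), Sox and Gata genes in 2 of 24 (Sox15, rank 1710, and Sox13, rank 2481) and the T-box genes with other names in 0 of 4. The Sox15 region was nearer to Cd68, and that of the proneural gene Neurog3 (rank 1787) was nearer to 2010107G23Rik. A full RE1 was found for 2 of the LIM homeodomain genes and 4 of the proneural genes, Neurog3 among them. None was in the Six6, Sox15 and Sox13 regions. The lists were written with earlier results of these data known, and the differences between lists were not tested.

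Genes that act with the members were also examined. None of 15 Wnt receptor and co-receptor genes had a region (up to 21.8%), and of 26 genes for Wnt secretion, antagonism and transduction only Dvl1, the gene for the cytoplasmic transducer Dishevelled, had one. This region had rank 16, lay 12.1 kb downstream of a TSS and held 3 full RE1s, but the gene with the nearest TSS was Tas1r3, a taste receptor gene. Of 9 Hox cofactor genes Meis3 had a region with 1 mismatch to the RE1 (rank 256, 8.55 kb downstream). Of 28 Polycomb genes Ezh1 (rank 1354), Phc2 (2104) and Phc1 (2433) had a region, none with a full RE1. The Ezh1 region was nearer to Ramp2. The shares were 3.85% (0.0973 to 19.6%) for Wnt secretion, antagonism and transduction genes and 11.1% (0.281 to 48.2%) for Hox cofactors. For Polycomb genes the share was 10.7% (2.27 to 28.2%). The 8.20% of all genes lay inside each of these intervals, so none of these lists stood out from the background.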

How the data were processed

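Crosslinked chromatin of wild type ESCs was sheared, immunoprecipitated for REST and sequenced from 1 pooled library. The study's methods name Bowtie with uniquely mapped reads and the submitters' processing notes name BWA, both with build mm9. Versions are not given in the sources used here. Per the methods, regions found by both PeakRanger and MACS were kept, but whether the deposited list is that overlap is not stated, and it holds more regions than the study describes. Sites in repeats could be missing because only unique reads were kept. The deposited list gives, for each region, position and a rank score made by the authors, which was used only to order regions. It holds no counts, so the depth of the library cannot be read from it, and the depth behind each region and the precision of a rank are unknown. Whether its coordinates count from 0 or 1 is not stated. They were printed as deposited and sequence was read as though the start counted from 0. RE1 coordinates count from 1.

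Genes came from GENCODE M1 and sequence from NCBIM37, the Ensembl release of mm9. The Hoxa3 symbol had 2 gene identifiers, which were merged. The RefSeq tables, of another build, were not used. RE1 matches were scored in Python 3.11.15 with numpy 2.4.6, and intervals with scipy 1.17.1. The search was tested on simulated data. No test was made, because 1 library has no replicates, and background was not measured without the input. Flanking windows that touched a region or an unknown base were left out. Other windows, distance measures, sets of regions, start sites, member rules and mismatch limits were tried as alternatives. Genes with no region on their chromosome (17) were left out of median distances.

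Members and lists were chosen with earlier results of these data known. The genes named by rule were members with a region within 20 kb, the nearest beyond 20 kb and the farthest member of each family, genes at the ends of Hox clusters (those of Hoxa are not reported here), genes nearest to a named region and up to 3 genes per other list with the best ranked region. Lhx2, Neurog3, Wnt9a, Pax6, Wnt7b, Foxk1, Hoxc11, Hoxd12, members between 20 and 50 kb and members nearest to distal regions were named after their values were seen. Sox1 was not in the annotation.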

Additional observations from a re-analysis of the deposited data

How the results depend on the processing

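The share of members with a region moved with the window, from 0.813% at 1 kb and 1.63% at 5 kb to 14.6% at 50 kb and 24.4% at 100 kb, and fell to 1.63% when only regions with a full RE1 counted. Other settings gave 3.25 to 8.75%. When a region counted only for its nearest gene, members stayed at 5.69% but all genes came to 5.41% in place of 8.20%, so the members were above and not below them. That order would reverse if the region between Wnt1 and Ddn were counted for Ddn. The median distance rose from 331.2 to 735 kb with only the 1252 more enriched regions. Fewer regions lengthen the distance for any gene, and no value for all genes is at hand for this setting. With members under 100 kb apart merged into 80 loci the median fell to 228 kb. The merged value was below the 283.9 kb of all genes taken singly, whereas the main value was above it. Of the 7 regions, 0 held a full RE1 at 3 mismatches, 4 at 6 mismatches and 4 when a wider gap also counted, a setting chosen after seeing the data. Of the RE1 matches near members, 2 lay in a region at up to 4 mismatches. At up to 2 there was no match near a member and so no value. These settings differ by construction in what they count. No paired analysis was possible because there was 1 library, and none could be left out. With no counts, the effect of sequencing depth on which genes lack a region is unknown.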
